A study of Mus musculus with 25 samples.

Results

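The de novo pathway from tryptophan to NAD was followed across 25 mouse liver libraries through 7 genes, chosen as the enzymes that open the route, carry it to nicotinic acid mononucleotide or divert it. All 7 of 7 symbols matched an Ensembl gene among the 41388 in the count tables, and all 7 passed the filter on low counts. They are Tdo2, Afmid, Kmo, Kynu, Haao, Qprt and Acmsd.

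NAD carries electrons in metabolism and is consumed by sirtuins and other enzymes. The liver can build it from the amino acid tryptophan, whereas NAMPT, the enzyme the vector is labelled to carry, recycles nicotinamide by the separate salvage route. In the de novo route tryptophan 2,3-dioxygenase (Tdo2) opens the indole ring, arylformamidase (Afmid) releases kynurenine, kynurenine 3-monooxygenase (Kmo) hydroxylates it, kynureninase (Kynu) cleaves off alanine, and 3-hydroxyanthranilate dioxygenase (Haao) makes aminocarboxymuconate semialdehyde. That product either cyclises to quinolinate, which quinolinate phosphoribosyltransferase (Qprt) takes on towards NAD, or is removed by its decarboxylase Acmsd, which draws carbon away from NAD.

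The study asked how hepatocyte NAMPT acts in diet-fed mice with and without hepatocyte SIRT1, an NAD-dependent deacetylase. Livers came from male mice aged 20 wk at the end of a study of 12 wk, and every mouse had received adeno-associated virus serotype 8 (AAV8). The 5 groups were WT mice on chow with empty vector (EV; n = 3), WT mice on Western diet (WD) with EV (n = 6) or NAMPT vector (n = 6), and WD mice labelled LKO with EV (n = 5) or NAMPT vector (n = 5). WT mice were Sirt1 LoxP/LoxP, and LKO mice carried albumin-driven Cre in addition, so that deletion was aimed at hepatocytes. The NAMPT vector used a thyroxine binding globulin promoter, likewise active in hepatocytes, and only EV mice were sampled on chow.

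Libraries held 20166175 to 32937326 counts assigned to genes. Sirt1 was not detectably lower in libraries labelled LKO (EV: 8.57 ± 1.34 CPM, SD, n = 5) than in WT (8.86 ± 0.57 CPM, SD, n = 6; log2 difference -0.07, adjusted p = 0.99). Under NAMPT vector it stood at 9.82 ± 1.36 CPM in libraries labelled LKO (SD, n = 5) against 8.58 ± 0.62 CPM in WT (SD, n = 6; 0.19, adjusted p = 0.237). This count covers the whole gene, and reads over the deleted part were not analysed here. Nampt stood at 59.5 ± 10.6 CPM in WD WT NAMPT against 47.4 ± 6.46 CPM in WD WT EV (SD, n = 6 each; log2 difference 0.34, adjusted p = 0.144), and at 80.0 ± 28.4 against 56.1 ± 12.0 CPM in the libraries labelled LKO (SD, n = 5 each; 0.41, adjusted p = 0.403). Neither gene passed the test at the gene level, and groups are named below as labelled. Libraries also differed in composition: the TMM factor of WD WT NAMPT replicate 2 was 1.29, against 0.887 to 1.12 in the other libraries. Hepatocyte markers summed to 44490 to 74960 CPM over all libraries, and none of the 6 was near 0.

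The promoters of 2 members are shown because Afmid was lower on Western diet with the groups apart, whereas Haao, which makes the intermediate at the branch point, was not called. Each is the run of 250 bases before the RefSeq start (build GRCm38.p6), read in the direction of the gene, with capitals marking matches to the motifs searched. The windows of 5 members were searched, those of Tdo2, Afmid, Kmo, Haao and Qprt. Afmid is at chr11:117825669-117825918 (plus strand) and Haao at chr17:83846791-83847040 (minus strand).
Afmid: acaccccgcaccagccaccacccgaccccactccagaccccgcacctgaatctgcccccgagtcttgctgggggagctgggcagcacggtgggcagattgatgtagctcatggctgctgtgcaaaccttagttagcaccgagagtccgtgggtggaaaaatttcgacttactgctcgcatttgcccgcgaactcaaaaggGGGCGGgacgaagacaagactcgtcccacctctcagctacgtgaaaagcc
Haao: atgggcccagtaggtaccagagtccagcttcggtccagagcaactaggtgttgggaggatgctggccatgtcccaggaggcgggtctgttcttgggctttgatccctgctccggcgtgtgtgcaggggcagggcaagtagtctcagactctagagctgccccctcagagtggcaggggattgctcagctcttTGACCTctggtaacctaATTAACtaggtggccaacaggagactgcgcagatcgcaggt
The 7 motifs searched on both strands were the TATA box (TATAAA), the GC box (GGGCGG), a nuclear receptor half-site (AGGTCA), an HNF1 half-site (GTTAAT), the amino acid response element (TGATGNAA), the E-box (CACGTG) and the D-box (TTANGTAA). The nuclear receptor half-site lay at 2 of the 5 members, Tdo2 and Haao, and is held by 14% of the 32851 windows of this length. The GC box lay only at Afmid among the 5 (32.7% of all windows) and the HNF1 half-site only at Haao (6.43%). The letters of the TATA box lay only at Tdo2 (12.4%), far from the start, at position -229. The response element (3.45%), the E-box (6.02%) and the D-box (2.06%) lay at none of the 5 in these letters. A match of letters is a description and not a bound site.

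Levels were first compared between members per length of exon, as TMM-scaled CPM per kb, where CPM divides counts by library size and TMM scaling corrects that size for composition. The pathway was uneven, with Haao and Tdo2 at the top and Afmid and Acmsd at the bottom in every group. Over the 25 libraries the medians were 334 for Haao, 281 for Tdo2, 76.2 for Qprt, 49.8 for Kmo, 24.8 for Kynu, 4.25 for Afmid and 3.91 for Acmsd. On chow Tdo2 (351 to 383) lay above Haao (329 to 346) without overlap, whereas in WD WT EV Tdo2 (196 to 410) and Haao (297 to 427) overlapped. Qprt, Kmo and Kynu kept this order in all 5 groups, although Qprt (58.0 to 90.1) and Kmo (26.4 to 66.2) overlapped over all libraries. The ranges of Afmid and Acmsd overlapped on chow and in WD WT EV, so the order of these neighbours was not resolved.

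**Figure D1:**
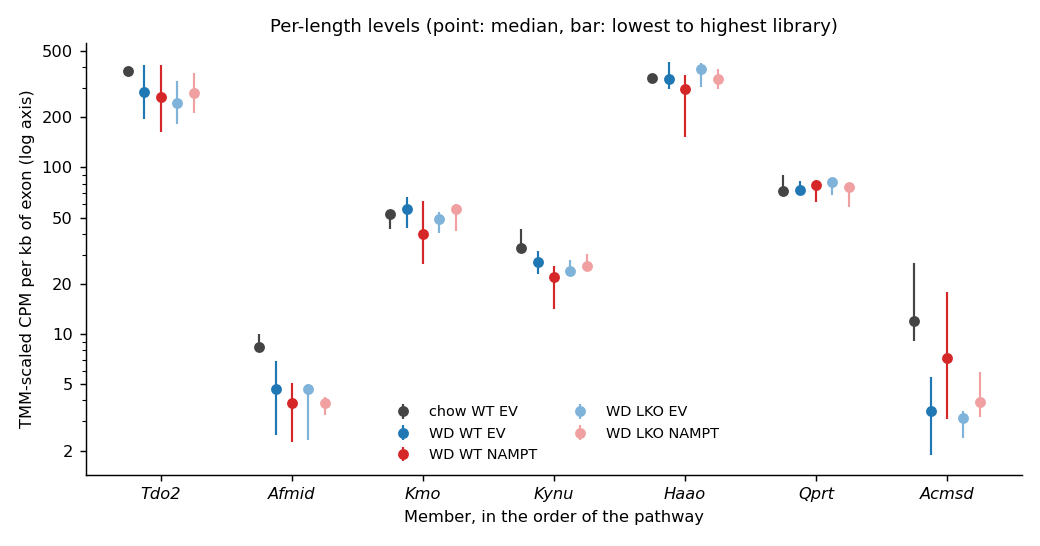
Per-length level of each member in the order of the pathway (TMM-scaled CPM per kb of exon, log axis); points are group medians and bars run from the lowest to the highest library. Haao and Tdo2 sit at the top and Afmid and Acmsd at the bottom, with chow the highest group median for Tdo2, Afmid, Kynu and Acmsd.

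The length used for Afmid matters. Afmid spans chr11:117825924-117839908 in GRCm38 and shares 1649 of its 3539 exonic bases with neighbours, 1566 of them with Gm20708 on the same strand and 83 with Tk1 on the other, and reads in shared bases are assigned to no gene by default counting. Per kb of unshared exon, Afmid averaged 16.3 on chow and 9.03 in WD WT EV, against 8.71 and 4.82 over its whole length. Acmsd (chr1:127729413-127767978) shares 94 of 2831 exonic bases with an antisense gene that had at most 10 counts. The other 5 members share no exonic base with another gene.

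Western diet was compared with chow in WT mice with EV. The lowest-expressed members fell: Acmsd to 0.285 times and Afmid to 0.545 times the chow level, and Kynu fell less, to 0.808 times. Of the 7 members 3 were lower and 0 higher at an adjusted p of at most 0.05, beside 22% of all 14065 genes called in either direction (12% lower, 10.1% higher). The median log2 difference was -0.31 over the members and -0.01 over all genes. In whole liver, fewer cells of a type and less RNA per cell cannot be told apart.

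Acmsd had 34.0, 25.7 and 75.9 CPM in chow replicates 1, 2 and 3. In WD WT EV it ranged from 5.32 to 15.7 CPM with a median of 9.81, so that every chow library lay above every WD WT EV library. The difference was -1.81 ± 0.30 on the log2 scale (SE; adjusted p = 0.000169), a result with the groups apart that 16.1% of all genes share. Acmsd remained called in each of the 9 fits that left out 1 library, and without chow replicate 2 the difference was -2.45 (adjusted p = 0.000316).

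Afmid had 35.2, 29.5 and 27.7 CPM on chow and 8.82 to 24.3 CPM (median 16.6) in WD WT EV, again without overlap. It differed by -0.88 ± 0.22 (SE; adjusted p = 0.00635). The call was lost without chow replicate 1 (-0.75, adjusted p = 0.139) and without chow replicate 2 (-0.88, adjusted p = 0.0963).

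Kynu had 193, 203 and 263 CPM on chow and 142 to 193 CPM (median 165) in WD WT EV. The highest WD WT EV library thus just passed the lowest chow library. The difference of -0.31 ± 0.11 (SE; adjusted p = 0.0403) was the least firm: it was lost in 6 of 9 fits that left out 1 library, namely chow replicate 1 (adjusted p = 0.051), 2 (0.0984) or 3 (0.0958) and WD WT EV replicate 1 (0.0956), 4 (0.101) or 7 (0.0624). Without chow replicates 1 and 2 in turn the call was lost while the difference was larger, at -0.48 and -0.44. It was lost also in 7 of 10 other settings: edgeR's quasi-likelihood test (adjusted p = 0.0792), DESeq2 (0.06), no quality weights (0.0995), no filter (0.0701), the compared groups alone (0.0818), 2 surrogate variables (0.147) and the clock-gene score (0.148).

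Tdo2, the first step, was tight on chow at 1205, 1312 and 1304 CPM and spread from 671 to 1405 CPM (median 972) in WD WT EV. Its difference of -0.44 ± 0.17 (SE) had an adjusted p of 0.0695. The value ran from -0.87 with the clock-gene score (adjusted p = 0.0183) to -0.19 with 2 surrogate variables (0.313), and also passed with library size alone (-0.49, 0.0159) and with the replicate block (-0.79, 0.0024), which rests on a shared number only. It passed also without WD WT EV replicate 8 (-0.55, adjusted p = 0.0217). The remaining members showed smaller differences: Kmo 0.10 (95% interval -0.15 to 0.35), Haao 0.06 (-0.20 to 0.32) and Qprt 0.05 (-0.13 to 0.22). Chow Qprt was at 192, 180 and 238 CPM and WD WT EV Qprt at 186 to 218 CPM.

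**Figure D2:**
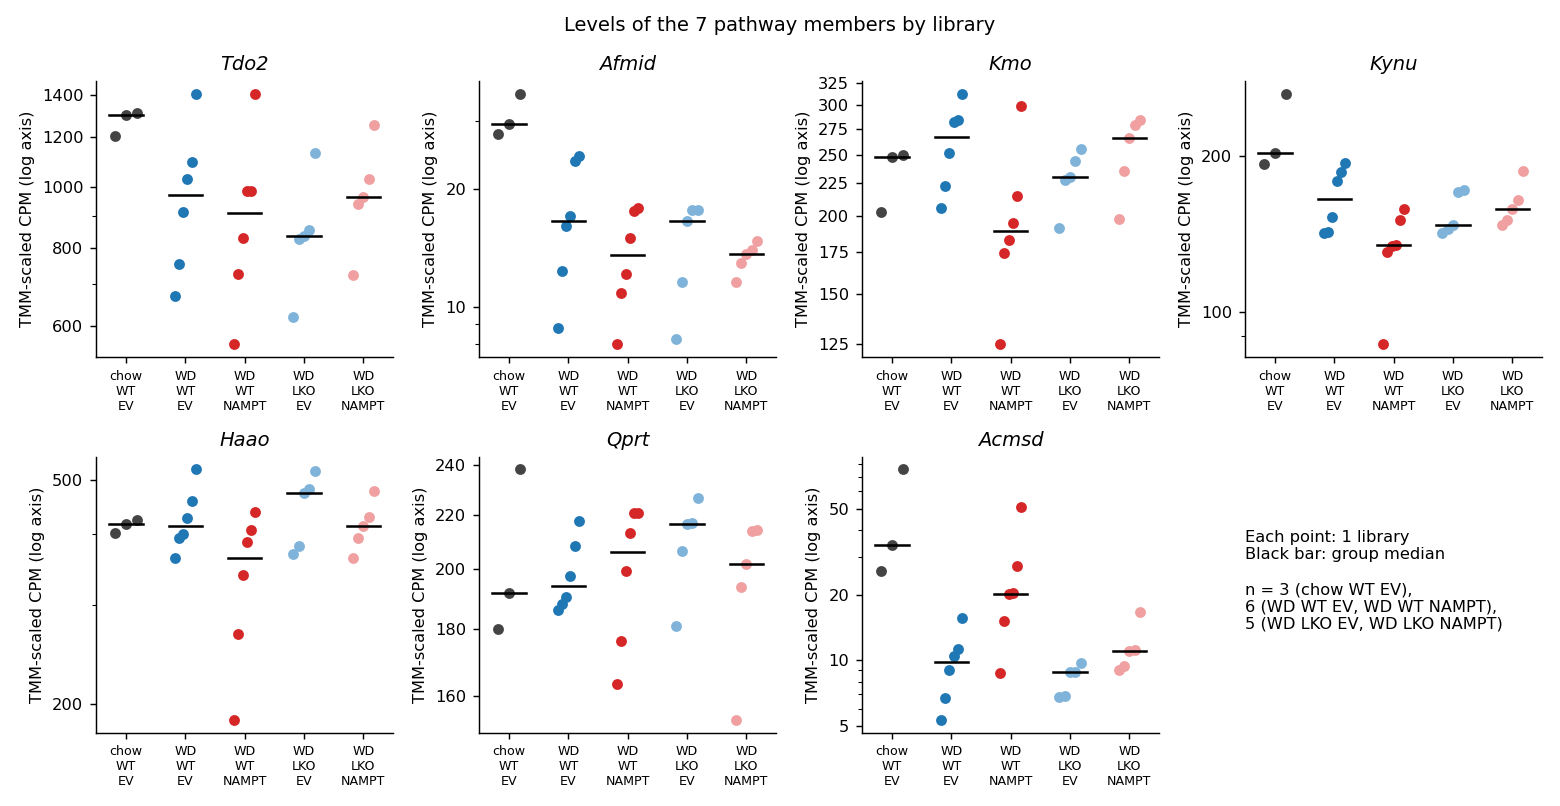
TMM-scaled CPM of each member by library (log axis), with 1 point a library and a bar at the group median. Acmsd and Afmid show the 3 chow libraries above all WD WT EV libraries, and Qprt stays between 153 and 238 CPM in all 25 libraries.

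Because Qprt and Acmsd act on alternative fates of 1 intermediate, their per-length levels were set side by side in each library, as a description without a test. Qprt exceeded Acmsd by 6.04, 7.51 and 3.36 times in chow replicates 1, 2 and 3. In WD WT EV the ratio ran from 14.2 to 37.8 (median 21.5), and in WD WT NAMPT from 3.70 to 26.2 (median 11.6). It was 26.1, 26.3, 28.6, 22.6 and 35.5 in WD LKO EV replicates 1 to 5, and 13.7, 20.5, 14.8, 23.95 and 22 in WD LKO NAMPT replicates 1 to 5. WD WT NAMPT replicates 1 and 2 (3.70 and 6.39) lay within the chow range, and every other WD library lay above it. Their quality weights in the fit were 0.506 and 0.401, where all libraries ran from 0.336 to 2.5. Qprt ran from 153 to 238 CPM over all libraries and Acmsd from 5.32 to 75.9 CPM. The ratio thus largely restates Acmsd and is not a separate result.

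**Figure D3:**
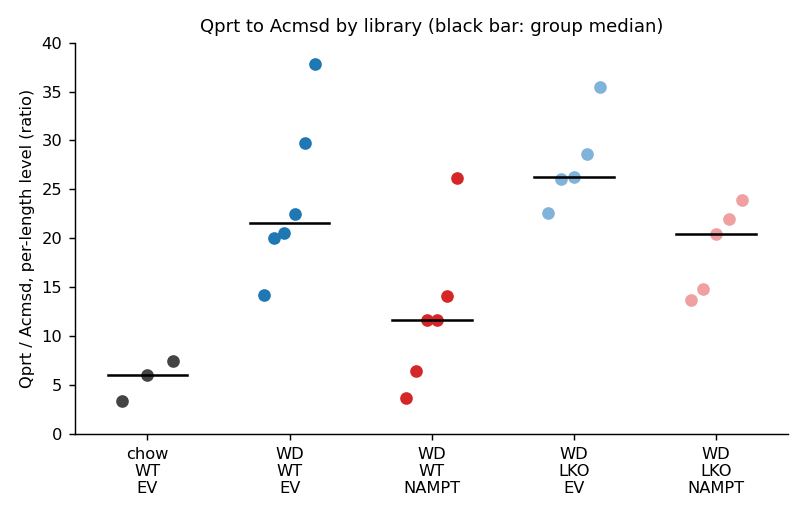
Ratio of the per-length level of Qprt to that of Acmsd in each library (linear axis), with a bar at the group median. The 3 chow libraries lie at 3.36 to 7.51, below every WD library with EV, and WD WT NAMPT spans 3.70 to 26.2.

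The genes around the pathway were counted from a list of 21 (other tryptophan oxygenases, transporters, kynurenine aminotransferases, the glutarate branch, the last steps to NAD and other uses of tryptophan), of which 18 passed the filter. With diet 2 were higher and 1 lower. Nmnat1, which joins the mononucleotide to ATP in the last steps to NAD, rose by 0.40 ± 0.10 (SE, adjusted p = 0.00761). It ran from 15.1 to 19.5 CPM in WD WT EV against 12.95 to 13.6 CPM on chow. Got2, mitochondrial aspartate aminotransferase, rose by 0.26 ± 0.08 (adjusted p = 0.0206), and Ddc, aromatic amino acid decarboxylase, was lower (-0.87 ± 0.21, adjusted p = 0.00416). Without chow replicate 1, and without chow replicate 2, 0 of the 18 were called. The count was 2 higher and 5 lower with library size alone and with the replicate block, 3 and 2 with 2 surrogate variables, 1 and 1 by edgeR's quasi-likelihood test and by DESeq2, and 1 and 0 without quality weights. Ido1 was at 0 counts in all libraries, and Tph1 and Tph2 had at most 3 counts in any library.

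Some cell type markers and most of the listed clock genes were called in this comparison, beside 22% of all genes. Of 6 hepatocyte markers 2 were lower, Cps1 (-1.22, adjusted p = 0.00117) and Tat (-0.95, 0.0026), with a median of -0.37 over the list and sums of 50600 to 67000 CPM in WD WT EV against 62920 to 74960 CPM on chow. Of 9 macrophage markers Cd68 was higher (0.79, adjusted p = 0.0427), and 8 of the 9 had positive differences. Of 5 stellate markers Lrat was higher (0.54, 0.00175), and 3 of the 5 were positive. Of 5 endothelial markers Kdr was lower (-0.20, 0.036), while 4 of the 5 were positive. Lrp2, the only 1 of 4 kidney markers that passed the filter, was lower (-1.10, adjusted p = 0.0439). Neutrophil, lymphocyte and cholangiocyte markers had 0 called of the 4 in each list that passed the filter. The part of these markers in the member differences was not tested. Of 4 genes that peak with Arntl 4 were lower, and of 7 that peak with Dbp 5 were higher, in WD WT EV. The first set summed to 128 to 175 CPM on chow and 63.1 to 112 CPM in WD WT EV, and the second to 96.8 to 248 against 232 to 513 CPM. The hour of collection is not in the labels, and the part of these genes in the result was not tested beyond a fit with their score as a covariate, in which Acmsd (-2.12, adjusted p = 0.00579) and Afmid were still called, Kynu was not (adjusted p = 0.148) and Tdo2 was (-0.87, adjusted p = 0.0183). Scaling by library size alone turned the split over all genes from 1414 higher and 1687 lower to 1053 and 2175.

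NAMPT vector was compared with EV in WT mice on Western diet. Acmsd rose to 2.09 times its EV level, while Kmo and Kynu fell to 0.739 and 0.796 times. Of the 7 members 1 was higher and 2 lower, beside 13.4% of all genes called (7.67% higher, 5.77% lower). The median log2 difference was -0.29 over the members and 0.00 over all genes. No member had groups apart, as 0.96% of all genes did.

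Acmsd in WD WT NAMPT ran from 8.73 to 50.9 CPM with a median of 20.3, against 5.32 to 15.7 CPM in WD WT EV. The NAMPT libraries thus spread more widely, and 4 of 6 lay above the highest EV library. The difference was 1.06 ± 0.30 (SE; adjusted p = 0.0245). The WD WT EV libraries are the same ones that were set against chow, so the 2 Acmsd differences share them and are not independent.

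Kmo ran from 125 to 299 CPM (median 189) in WD WT NAMPT and from 206 to 313 CPM (median 267) in WD WT EV. It differed by -0.44 ± 0.12 (SE; adjusted p = 0.0188). Kynu ran from 86.5 to 158 CPM (median 134) against 142 to 193 CPM (median 165), a difference of -0.33 ± 0.10 (adjusted p = 0.0332). For both the groups overlapped, and WD WT NAMPT replicate 2 was the lowest library.

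Haao ran from 187 to 437 CPM (median 363) against 363 to 522 CPM (median 413), and its difference of -0.29 ± 0.12 (SE) had an adjusted p of 0.106. Afmid differed by -0.34 (95% interval -0.82 to 0.13), Tdo2 by -0.11 (-0.45 to 0.23) and Qprt by 0.09 (-0.08 to 0.26). For Haao 3 of the 6 NAMPT libraries lay below the lowest EV library.

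These calls were fragile. None of the 3 was called without WD WT EV replicate 2 (Acmsd adjusted p = 0.06, Kmo 0.0937, Kynu 0.147), WD WT EV replicate 6 (0.0576, 0.0652 and 0.1), WD WT NAMPT replicate 2 (0.0677, 0.05, above the threshold before rounding, and 0.0699) or WD WT NAMPT replicate 3 (0.0907, 0.0854 and 0.103). Kynu was lost also without WD WT EV replicate 8 (0.0704) and WD WT NAMPT replicate 4 (0.0568). Only Acmsd was called by edgeR's quasi-likelihood test and by DESeq2, and 0 members were called without sample quality weights, without the filter on low counts, with the compared groups alone or with 2 surrogate variables. In the first 3 of these settings Kmo stayed at -0.40, -0.44 and -0.43 and Kynu at -0.33 in each, whereas with 2 surrogate variables Kmo was -0.10, Kynu -0.17 and Acmsd 0.81. With the clock-gene score in the fit Kmo and Haao were called, and Acmsd (0.96, adjusted p = 0.0595) and Kynu (-0.31, 0.0679) were not. With library size alone Kynu was lost (-0.17, adjusted p = 0.138), where Kmo was -0.29 and still called. With the replicate block only Acmsd was called (1.54, adjusted p = 0.0147), beside -0.26 for Kmo and -0.21 for Kynu.

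Around the pathway 1 of 18 genes was higher and 5 were lower with NAMPT vector in WT. Slc7a8, a transporter of neutral amino acids, rose by 0.83 ± 0.21 (SE; adjusted p = 0.0158), and ran from 7.38 to 31.9 CPM against 8.88 to 17.2 CPM. Gcdh, glutaryl-CoA dehydrogenase of the degradative branch that Acmsd feeds, was lower (-0.53 ± 0.13, adjusted p = 0.0153), with 167 to 477 CPM against 403 to 501 CPM. The other lower genes were Ido2, an indoleamine dioxygenase (-0.54, adjusted p = 0.0216), the aromatic amino acid transporter Slc16a10 (-0.45, 0.0474), Got2 (-0.30, 0.0158) and Nmnat1 (-0.29, 0.047). In 4 other settings (edgeR's quasi-likelihood test, no sample quality weights, the compared groups alone and 2 surrogate variables) 0 of the 18 were called. The count was 0 also without WD WT EV replicate 2 or WD WT NAMPT replicate 3, and 9 (2 higher and 7 lower) without WD WT NAMPT replicate 6.

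Markers of some other cells moved with the NAMPT vector in WT, where 13.4% of all genes were called. Of 9 Kupffer cell and macrophage markers 6 were higher, and they summed to 265 to 758 CPM in WD WT NAMPT against 259 to 377 CPM in WD WT EV. Of 5 stellate cell markers 3 were higher, with sums of 153 to 319 against 168 to 230 CPM, and of the 4 neutrophil markers that passed the filter 2 were higher, with the 6 listed summing to 3.61 to 26.8 against 2.81 to 7.91 CPM and Ly6g at no more than 3 counts in any library. Of 5 endothelial markers Pecam1 was higher (0.36, adjusted p = 0.0304) and Clec4g lower (-0.40, 0.0179). Hepatocyte markers had 0 of 6 called, and lymphocyte and cholangiocyte markers 0 of the 4 in each list that passed the filter. Of 4 clock genes that peak with Arntl 3 were lower, and the part of all these genes in the member differences was not tested beyond the clock score. Scaling by library size alone moved the median of all genes to 0.16 and the split from 1079 higher and 811 lower to 2010 and 271, and upper-quartile factors gave 1214 and 594.

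**Figure D4:**
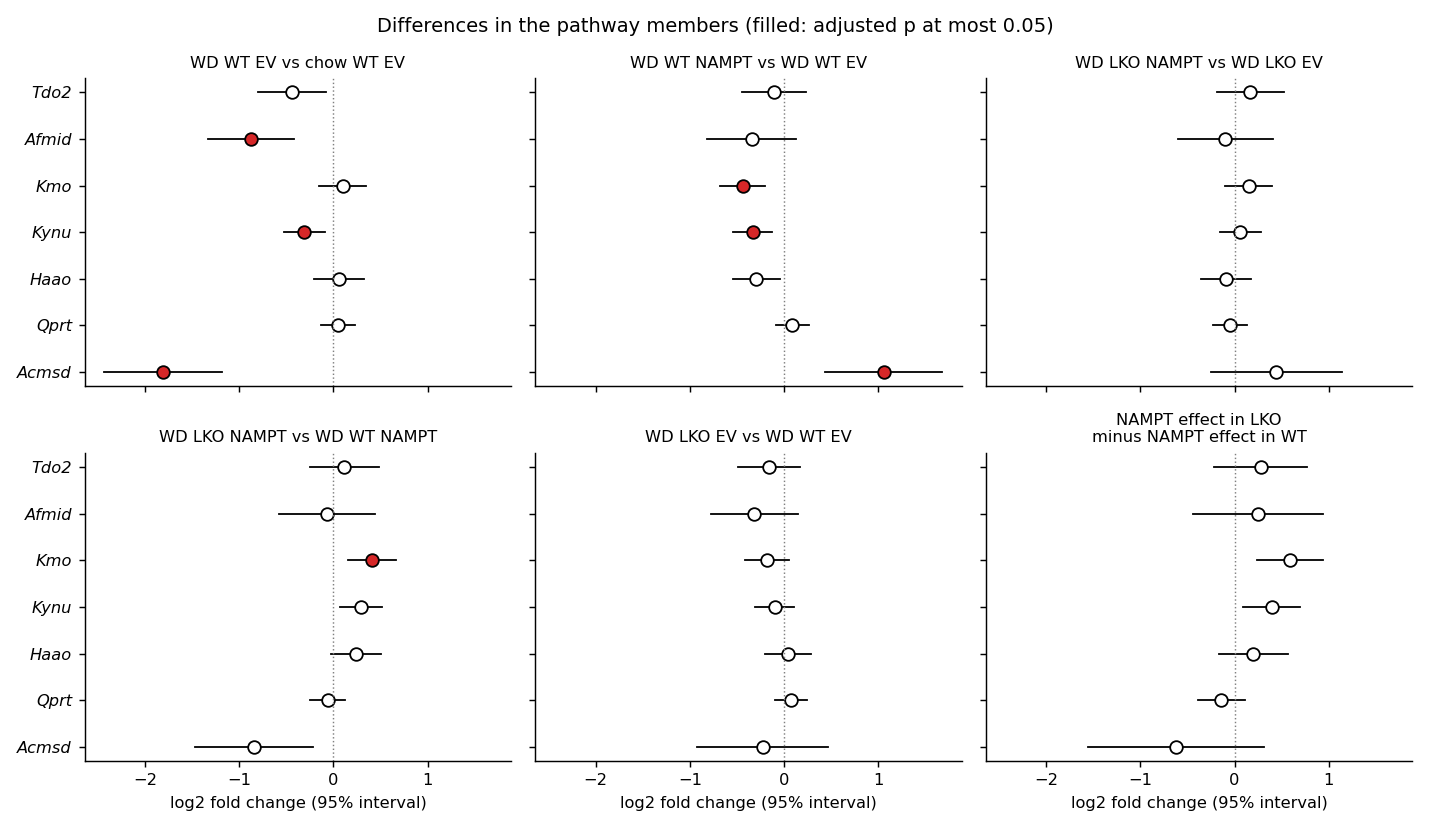
Log2 difference of each member with its 95% interval in 5 group comparisons and the interaction; filled points have an adjusted p of at most 0.05. Acmsd lies at -1.81 for diet and 1.06 for NAMPT vector in WT, and no member is filled in the LKO vector comparison, the LKO comparison under EV or the interaction.

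In libraries labelled LKO, NAMPT vector against EV called 0 of 7 members, beside 0.00711% of all genes (1.15% had groups apart). Acmsd had 16.7, 11.2, 11.1, 9.01 and 9.43 CPM in WD LKO NAMPT replicates 1 to 5. It had 8.89, 8.82, 6.76, 9.78 and 6.84 CPM in WD LKO EV replicates 1 to 5, and 3 of the 5 NAMPT libraries lay above the highest EV library. The difference was 0.44 (95% interval -0.25 to 1.14, adjusted p = 0.715). Over the members the median was 0.06, against 0.02 over all genes. At an unadjusted p under 0.05 the comparison had 1355 genes, none of them a member, and edgeR's quasi-likelihood test and DESeq2 called 0 members too.

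The interaction asked whether the NAMPT difference itself differed between LKO and WT, and called 0 of 7 members, beside 0.00711% of all genes; 2986 genes had an unadjusted p under 0.05. Kmo came nearest, with 0.59 ± 0.17 (SE, unadjusted p = 0.00197, adjusted p = 0.0843), followed by Kynu with 0.39 ± 0.15 (unadjusted p = 0.0128, adjusted p = 0.138). Acmsd differed by -0.62 (95% interval -1.55 to 0.32, adjusted p = 0.435), so that its NAMPT difference was called in WT and not in LKO without being shown to differ between them. Kmo passed without WD WT NAMPT replicate 5 (adjusted p = 0.0487) or 6 (0.0343) and without WD LKO NAMPT replicate 1 (0.0368). By edgeR's quasi-likelihood test and by DESeq2 0 members were called.

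Under NAMPT vector, LKO was compared with WT. Kmo was higher, at 1.33 times, and was the only 1 of 7 called, beside 7.96% of all genes (4.18% higher, 3.78% lower, and 1.39% with groups apart). It had 197, 266, 283, 235 and 279 CPM in WD LKO NAMPT replicates 1 to 5 and 125 to 299 CPM in WD WT NAMPT, which overlap. The difference was 0.41 ± 0.12 (SE; adjusted p = 0.0448). The call was lost in 9 of the 10 other settings, all but the clock-gene score, and the difference of Kmo ran from 0.13 to 0.43 over the 10. It was lost in 7 of 11 fits that left out 1 library: WD WT NAMPT replicate 1 (adjusted p = 0.0796), 2 (0.108), 3 (0.143) or 4 (0.0706), and WD LKO NAMPT replicate 2 (0.249), 3 (0.0938) or 5 (0.189).

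Acmsd stood at -0.85 ± 0.30 (SE; adjusted p = 0.0745) and Kynu at 0.29 ± 0.11 (adjusted p = 0.0809) in the same comparison. Acmsd passed without WD WT NAMPT replicate 5 (-1.10, adjusted p = 0.0134) or 6 (-0.91, 0.0436) and without WD LKO NAMPT replicate 1 (-0.93, 0.0467). The median was 0.12 over the members and -0.01 over all genes. Among the 18 surrounding genes Gcdh (0.52, adjusted p = 0.0324), Got2 (0.35, 0.0221) and Slc16a10 (0.57, 0.0352) were higher and Il4i1, an amino acid oxidase of immune cells, was lower (-0.73, 0.0426). In 5 other settings (edgeR's quasi-likelihood test, no quality weights, the compared groups alone, the block and 2 surrogate variables) 0 of the 18 were called, as was so without WD WT NAMPT replicate 2 or 3 or WD LKO NAMPT replicate 2, 3 or 5. The count was 8 (5 higher and 3 lower) without WD WT NAMPT replicate 6. Macrophage markers were lower for 4 of 9, with sums of 290 to 540 against 265 to 758 CPM. Of 6 hepatocyte markers Tat was lower (-0.74, adjusted p = 0.0354), while 3 of the 6 had positive differences and the median was -0.04. Also lower were 1 of 4 cholangiocyte markers, Sox9 (-1.44, 0.0282), and 1 of 5 stellate markers, Pdgfrb (-0.61, 0.0199). Of the 4 neutrophil markers that passed the filter Csf3r was lower (-1.31, 0.0223). No cholangiocyte, stellate or neutrophil marker had a positive difference. Endothelial and lymphocyte markers had 0 called, and the part of these markers was not tested. Scaling by library size alone changed the split from 588 higher and 532 lower to 204 and 636, and upper-quartile factors to 345 and 713. The WD WT NAMPT libraries serve this comparison and the one against EV.

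With EV, LKO against WT on Western diet called 0 of 7 members, beside 0.00711% of all genes; 891 genes had an unadjusted p under 0.05, no member among them, and edgeR's quasi-likelihood test and DESeq2 called 0 members. The widest estimates were Afmid at -0.32 (95% interval -0.78 to 0.15) and Acmsd at -0.23 (-0.92 to 0.47). Afmid had 8.25, 16.6, 11.5, 17.7 and 17.7 CPM in WD LKO EV replicates 1 to 5, within the 8.82 to 24.3 CPM of WD WT EV but for replicate 1. Qprt was narrowest, at 0.08 (-0.09 to 0.25). The members' median was -0.16, and that of all genes 0.00.

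The members also varied among mice of 1 group. Correlations were computed for all 21 pairs of members on deviations of log2 CPM from the group mean over 25 libraries, with 100000 permutations within groups (two-sided) and adjustment over the pairs. Tdo2, Afmid, Kmo, Kynu and Haao, the steps that lead to the branch point, correlated positively in every pair among them (r = 0.47 to 0.78), and all 7 pairs with an adjusted p of at most 0.05 for r were among them. By rho 6 pairs passed, the Tdo2 and Afmid pair not being one (r = 0.64, rho = 0.49, permutation p = 0.00396 and 0.0359, adjusted 0.0119 and 0.108; r = 0.54 without the 2 farthest libraries). For Tdo2 and Kmo r was 0.78 and rho 0.66 (permutation p = 0.00025 and 0.00228, adjusted 0.00175 and 0.016), and r was 0.63 without the 2 libraries farthest from the median. For Afmid and Haao r was 0.74 and rho 0.74 (permutation p = 8e-05 and 0.00043, adjusted 0.00147 and 0.00903), and r was 0.76 without the 2 farthest.

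Not every pair held. For Tdo2 and Haao r was 0.55 and rho 0.36 (permutation p = 0.026 and 0.141, adjusted 0.0683 and 0.27), and r fell to 0.25 without the 2 farthest libraries, on which the relation rests. Kynu and Haao fell likewise, from r = 0.55 (rho = 0.35, permutation p = 0.0394 and 0.0956, adjusted 0.0753 and 0.223) to 0.26. For Kmo and Kynu, a pair that passed, r dropped from 0.68 (rho = 0.58, permutation p = 0.00365 and 0.00553, adjusted 0.0119 and 0.0286) to 0.44 without the 2 farthest. Acmsd had r between -0.33 and 0.25 with the other 6, none with an adjusted p of at most 0.05. The nearest was Haao (r = -0.33, rho = -0.17, permutation p = 0.274 and 0.447, adjusted 0.412 and 0.521), with r = -0.26 without the 2 farthest. Without the 2 farthest libraries of each pair, r with Acmsd rose to 0.44 for Tdo2 and 0.36 for Kynu, above that range. It was 0.19 for Qprt, -0.10 for Afmid and -0.18 for Kmo. The points of a library share its depth, composition and scaling, and pairs of genes outside the members were not examined. The correlations are thus not shown to be particular to the pathway.

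**Figure D5:**
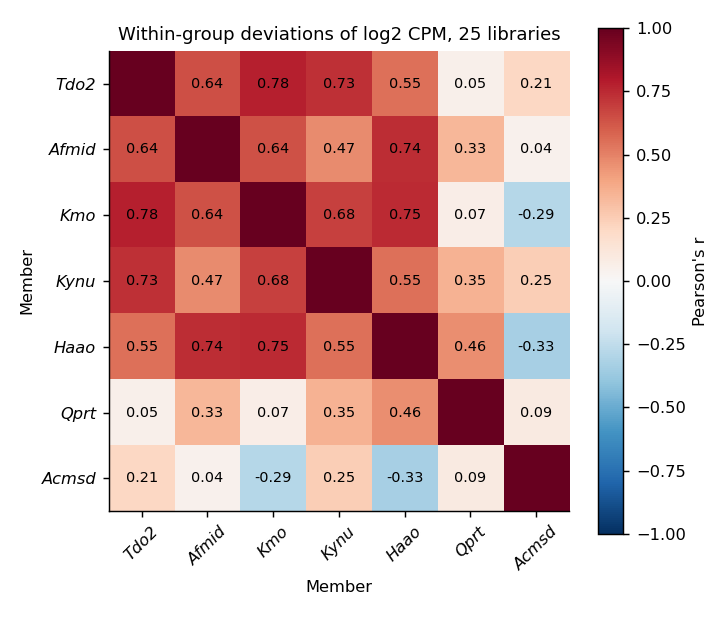
Pearson's r between members for deviations from the group mean of log2 CPM over 25 libraries (colour scale -1 to 1). The 5 members from Tdo2 to Haao have r of 0.47 to 0.78 with one another, and Acmsd has -0.33 to 0.25 with the other 6.

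Over all 25 libraries, groups pooled, the genes whose log2 CPM was most like that of each member are given as a description. For Acmsd they were Asns, asparagine synthetase (r = 0.93), Atp4a, a subunit of the gastric proton pump (0.92), and Grm8, a glutamate receptor (0.86). For Tdo2 they were the urea cycle gene Otc, Acadsb and Ugt2a3 (0.92 each). Kmo was most like Cyb5a, Timd2 and Ephx2 (0.95 each), Afmid like Pigr (0.95), Gnmt (0.93) and Ces2a (0.92), Haao like Car5a, Ces1e and Apoa2 (0.93 each), and Kynu like Slc25a15 (0.90), Dbt (0.89) and Serpinc1 (0.89). Qprt had the least similar neighbours, Mul1 (0.78), Cox6a1 (0.77) and Mvb12a (0.77).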

How the data were processed

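Liver RNA was poly-A selected and sequenced as single reads of 50 bases. The authors deposited counts per gene with CPM and RPKM for each library. The submitters' processing notes name STAR 2.5.1a, featureCounts 1.4.6-p5 and GRCm38, while the study's methods give other versions and Ensembl release 76, and strandedness is not given in the sources used here. The deposited CPM and RPKM follow from the counts (largest relative deviation 5.9e-14), and RPKM was used for the per-length alternative only.

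Genes above 1 CPM in at least 2 libraries were kept (14065, with 4 rRNA genes left out). Counts were TMM-scaled and fitted with limma 3.58.1 voom with sample quality weights (edgeR 4.0.16, R 4.3.3) over all 25 libraries, groups from the titles, with Benjamini-Hochberg adjustment at 0.05. Intervals are 95% intervals of this fit. Per-length levels divide CPM by exonic bases. Log values used a pseudocount of 0.5. Alternatives were edgeR's quasi-likelihood test, DESeq2 1.42.0, other scalings, no filter, the compared groups alone, a replicate block, 2 surrogate variables (sva 3.50.0), a clock-gene score and each library left out. The pipeline was tested on simulated data.

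Members, lists and motifs were chosen with earlier results of these data known. By the rule, named genes were all 7 members, each called gene of the surrounding list, the 3 genes most like each member, and Sirt1 and Nampt. Single marker genes, and uncalled genes of the surrounding list, were named after their values were seen. The promoters of Kynu and Acmsd are not reported here. Titles were followed for the vector, since a treatment label names SIRT1 as its insert. P-values measure the spread between mice labelled as replicates, and Acmsd had 126 to 1924 counts a library.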

Additional observations from a re-analysis of the deposited data

Results flagged for a closer look

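Among 28 sets of a member in a group of 5 or 6 libraries, 1 held a library far from the others: Acmsd in WD LKO NAMPT replicate 1, at 16.7 CPM, where the next library had 11.2 CPM. The gap was 0.719 of the range of the group, against a critical value of 0.71. Chance gives such a gap in about 1 in 20 sets. Without that library the Acmsd difference between WD LKO NAMPT and WD WT NAMPT passed the threshold (-0.93, adjusted p = 0.0467). The interaction called 0 of the 7 members.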

How the results depend on the processing

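All 10 other settings, and each of the 9 fits that left out 1 library, called Acmsd lower in WD WT EV than on chow, and the 10 settings called Afmid too. Kynu was lost there in 7 of the 10 settings, and Tdo2 was gained in 3 and without WD WT EV replicate 8. The count of members called there was 1 to 4 with 1 library left out. For NAMPT vector in WT it was 3 and became 1 by edgeR's quasi-likelihood test, 1 by DESeq2, 1 with the replicate block, 2 with library size alone, 2 with the clock-gene score, and 0 without quality weights, without the filter, with the compared groups alone and with 2 surrogate variables. It was 0 to 4 with 1 library left out. For LKO against WT under NAMPT vector it was 1 and became 0 in every setting but the clock-gene score, and 0 to 2 with 1 library left out. The interaction had 0 to 1 with 1 library left out and 0 in every other setting. The other comparisons had 0 throughout. The cause of these losses was not tested.

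Over all genes, calls for NAMPT vector in WT (1890 in the fit reported) ran from 70 to 2368 over the 10 other settings and from 132 (without WD WT NAMPT replicate 3) to 2846 (without its replicate 6) with 1 library left out. For LKO against WT under NAMPT vector (1120) they ran from 12 to 1606, and from 0 (without WD LKO NAMPT replicate 2) to 2287 (without WD WT NAMPT replicate 6). For diet (3101) they ran from 1201 to 3842, and from 843 (without chow replicate 2) to 3171. For the interaction (1) they ran from 0 to 203, and from 1 to 676 (without WD LKO NAMPT replicate 1). Library size alone moved the median of all genes to 0.16, -0.12 and -0.15 in the vector comparison in WT, LKO against WT under NAMPT and the interaction.

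Estimates that changed sign were all uncalled. For NAMPT vector in WT, Tdo2 was 0.034 with library size alone, 0.18 with the replicate block and 0.24 with surrogate variables, and Afmid was 0.098 and 0.072 in the last 2. For LKO against WT under NAMPT, Afmid was 0.072 without quality weights, and Tdo2 was -0.0010 with library size alone and -0.22 with surrogate variables. For LKO against WT under EV, the replicate block gave Tdo2 0.14, Afmid 0.18, Kynu 0.012 and Acmsd 0.24. For diet, Qprt was -0.039 by edgeR, -0.034 by DESeq2, -0.030 without quality weights, -0.018 with the block and -0.091 with the clock score. In the last 2, Kmo was -0.088 and -0.056, and Haao -0.099 and -0.20. In the interaction, Tdo2 was -0.054 with the block and -0.13 with surrogate variables, and Afmid -0.31 and -0.087. With 1 library left out, Tdo2 ran from -0.21 to 0.012 (NAMPT vector in WT) and -0.016 to 0.21 (LKO against WT under NAMPT), Afmid from -0.25 to 0.12 there and -0.26 to 0.017 for NAMPT vector in LKO, Kynu from -0.0064 to 0.12 in that comparison, Haao from -0.020 to 0.13 (LKO against WT under EV), and Qprt from -0.12 to 0.083 (diet).

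Replicate numbers name different mice, so the block rests on a shared number only. Deviations of same-numbered libraries had r of -0.38 to 0.42, and libraries with different numbers were not compared. With it 884 genes were called for NAMPT vector in WT, 412 for LKO against WT under NAMPT and 3842 for diet. The deposited RPKM gave the same order of members in all 5 groups.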

Other observations

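The per-length level of Kynu relative to Kmo, consecutive steps of the pathway, was 0.596, 0.624 and 0.998 across the 3 chow libraries in ascending order and 0.457 to 0.530 (median 0.489) in WD WT EV. The chow libraries thus lay above those of WD WT EV. It was 0.405 to 0.662 in WD WT NAMPT, 0.478 to 0.591 in WD LKO EV and 0.446 to 0.573 in WD LKO NAMPT. These ratios were examined after the member values had been seen and were not tested.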
